A study of Homo sapiens with 11 samples.

Results

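Members of the hypoxia-inducible factor (HIF) pathway were followed through nickel exposure and washout: the HIF subunits HIF1A, EPAS1, HIF3A and ARNT, the oxygen-dependent hydroxylases EGLN1, EGLN2, EGLN3 and HIF1AN, the ubiquitin ligase subunit VHL and the feedback regulator CITED2. These 10 genes were taken by symbol. All 10 were listed among the 28252 genes measured by RNA-Seq in RT4 cells and among the 26237 gene promoters measured by H3K4me3 ChIP-Seq in BEAS-2B cells. In RT4 cells 9 of the 10 passed the expression filter, and HIF3A did not.

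RT4 is a human line from a non-invasive bladder cancer. BEAS-2B derives from human bronchial epithelium and was immortalized. Both were studied as untreated (UT) cells and as cells kept in 100 μM NiCl2 over 6 weeks (nickel-exposed, Ni-E). Cells returned to nickel-free medium afterwards (nickel-washed-out, Ni-W) were studied as well. RT4 Ni-W cells had 2 weeks without nickel, while the BEAS-2B Ni-W cells were 1 population grown from a colony and kept without nickel for more than 6 months. RT4 had 2 RNA-Seq libraries per condition (6 in all), and BEAS-2B had 1 H3K4me3 file per condition. ChIP is described on 2 biological replicates, and whether each file holds 1 of them or both pooled is not given in the sources used here. RNA was thus read in one line and the promoter mark in the other, so that the 2 readouts were not matched.

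When oxygen is available, EGLN enzymes (also called PHDs) hydroxylate prolines of the HIF-α proteins, VHL recognizes the hydroxylated protein and leads it to proteasomal degradation, and HIF1AN (FIH) hydroxylates an asparagine that would otherwise bind the coactivators p300 and CBP. When these iron-dependent enzymes are inhibited, the α subunits HIF1A or EPAS1 pair with ARNT, bind the hypoxia response element and raise transcription of target genes. EGLN1, EGLN3 and CITED2 are themselves textbook HIF targets that restrain the pathway, and nickel ions are known to stabilize HIF1A protein. RNA levels, as measured here, do not show protein stability or hydroxylation.

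Proximal promoter sequences of the feedback genes and of EGLN2 are given first, because the core letters of the hypoxia response element differ among them. The windows hold the 250 bases before the first listed RefSeq start of each gene (GRCh38.p14), on the strand of the gene. Capitals mark ACGTG or GCGTG on either strand. The windows are chr1:231422288-231422537 (minus strand) for EGLN1, chr6:139374649-139374898 (minus strand) for CITED2, chr14:33951075-33951324 (minus strand) for EGLN3 and chr19:40798941-40799190 (plus strand) for EGLN2.
EGLN1: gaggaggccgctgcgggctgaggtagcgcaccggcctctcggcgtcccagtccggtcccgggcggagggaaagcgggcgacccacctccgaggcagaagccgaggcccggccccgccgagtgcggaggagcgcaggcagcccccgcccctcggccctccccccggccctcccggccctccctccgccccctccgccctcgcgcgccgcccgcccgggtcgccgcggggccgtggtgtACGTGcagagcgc
CITED2: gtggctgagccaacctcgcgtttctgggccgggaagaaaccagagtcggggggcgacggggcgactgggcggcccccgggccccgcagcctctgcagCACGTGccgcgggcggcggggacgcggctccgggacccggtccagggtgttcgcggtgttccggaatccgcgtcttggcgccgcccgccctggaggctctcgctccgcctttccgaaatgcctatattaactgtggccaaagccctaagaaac
EGLN3: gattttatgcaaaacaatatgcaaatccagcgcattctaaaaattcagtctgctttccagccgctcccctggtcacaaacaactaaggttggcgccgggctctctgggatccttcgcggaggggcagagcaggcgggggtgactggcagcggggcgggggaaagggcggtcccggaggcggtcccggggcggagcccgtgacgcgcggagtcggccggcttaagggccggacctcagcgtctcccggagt
EGLN2: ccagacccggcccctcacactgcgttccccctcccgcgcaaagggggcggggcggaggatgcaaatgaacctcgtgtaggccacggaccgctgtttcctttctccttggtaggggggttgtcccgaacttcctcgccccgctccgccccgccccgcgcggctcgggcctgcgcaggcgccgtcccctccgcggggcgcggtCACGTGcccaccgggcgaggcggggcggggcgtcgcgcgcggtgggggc

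EGLN1 had 1 ACGTG, which began 13 bases before its start. CITED2 and EGLN2 each had ACGTG on both strands in the overlapping, palindromic form CACGTG, which began 153 and 49 bases before the start. EGLN3 had no ACGTG or GCGTG in its window. Further windows were listed for CITED2, each with 1 GCGTG and no ACGTG, and for EGLN2, with neither motif. Of 35116 RefSeq windows of the same length, 43.2% held at least 1 of these motifs and 18.5% held ACGTG, so that a match alone was common. RefSeq windows were available for 9 members, and VHL had none. Among the other members, 1 GCGTG was found for HIF1A and 1 for EPAS1, 3 were found for HIF3A, and none for ARNT or HIF1AN (first listed window of each). A match describes these letters and does not mark a bound site.

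The RT4 libraries had 17075833 to 27736454 RSEM expected counts, and replicate 1 was the shallower library in each condition. Libraries with the same replicate number deviated together from their group means (r = 0.657, 0.764 and 0.689 for the 3 pairs of conditions, across 14502 genes), so values from a model with the replicate number as a block are printed beside those of the model without it wherever they change a call of the 10 genes. All 14 urothelial markers and 5 of 5 epithelial markers were expressed in RT4 cells, with summed levels of 6320 to 8490 TPM and 7670 to 9450 TPM, while 5 of 7 fibroblast, 4 of 5 endothelial and 4 of 5 immune markers had at most 10 counts in every library. Of the 14 urothelial markers, 3 fell and 0 rose in Ni-E compared to UT cells without the block (0.71% of all genes fell), and 8 fell and 0 rose with it (5% of all genes fell). The log2 fold change was above 0 for 5 of the 14 under both models. The 3 were UPK1A (log2 −2.27, edgeR adjusted P = 0.0376), KRT13 (log2 −2.69, 0.0169) and KRT20, with 177 and 297 counts in UT and 4 and 3 in Ni-E libraries. The summed level of the fibroblast markers was 1.15 to 1.83 TPM in UT, 3.25 to 5.06 TPM in Ni-E and 2.46 to 5.43 TPM in Ni-W cells, and that of the immune markers 7.45 to 7.49, 10.6 to 13.1 and 13.4 TPM, with COL1A2, DCN and CD3E among those at 0 counts in every library. COL3A1 carried the fibroblast difference, with 0.84 and 0.26 TPM in UT and 4.13 and 2.18 TPM in Ni-E libraries, while COL1A1 had 0.85 and 0.80 TPM in UT and 0.55 and 0.80 TPM in Ni-E libraries. CD68 made up nearly all of the immune sum, with 7.33 and 7.30 TPM in UT and 12.97 and 10.55 TPM in Ni-E libraries. COL3A1 (edgeR adjusted P = 3.56e-05) and CD68 (0.0297) rose and the endothelial marker VWF (0.0138) fell in Ni-E vs UT with the block, and none of these markers was called without it. The part of these markers in the results below was not tested. In a bulk culture, fewer cells of a type and less RNA per cell cannot be told apart. In BEAS-2B UT cells 4 of 5 epithelial markers but only 2 of 6 markers of bronchial cell types (NKX2-1 and FOXJ1) had at least 1 RPKM of H3K4me3. The same level was reached by 3 of 7 fibroblast, 5 of 14 urothelial, 1 of 5 endothelial and 0 of 5 immune markers.

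Levels of the 10 genes were first ordered in UT RT4 cells per transcript length, in TPM (a per-transcript unit scaled to the same total in each library; mean ± SD, n = 2). EPAS1, the HIF-2α subunit, was highest at 170.4 ± 62.7 TPM. EGLN3 followed at 112 ± 16.7, EGLN2 at 100.2 ± 5.57 and HIF1A, the HIF-1α subunit, at 80.7 ± 44.9 TPM, and these 4 genes lay above 93.1% or more of the listed genes. VHL was at 52.7 ± 3.34 and CITED2 at 31.0 ± 17.5 TPM. Lower still were ARNT, the shared β subunit, at 14.9 ± 5.01 TPM, HIF1AN at 11.3 ± 2.91 TPM and EGLN1 at 7.40 ± 2.86 TPM. Neighbours in this order differed by less than the sum of their SDs, except for VHL and CITED2, whose difference only just exceeded it. The order also rests on the annotated lengths, such as 12924 bases for HIF1AN and 7097 bases for EGLN1. The longest EGLN1 transcript in GENCODE 44 has 4335 bases. In CPM, which is not divided by length, HIF1AN had a UT mean of 82.4 and ARNT of 38.3. HIF3A was at 0 counts in 5 libraries and at 1 count in Ni-E replicate 1, which is below the floor of 3 counts, and it was not analysed further.

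**Figure D1:**
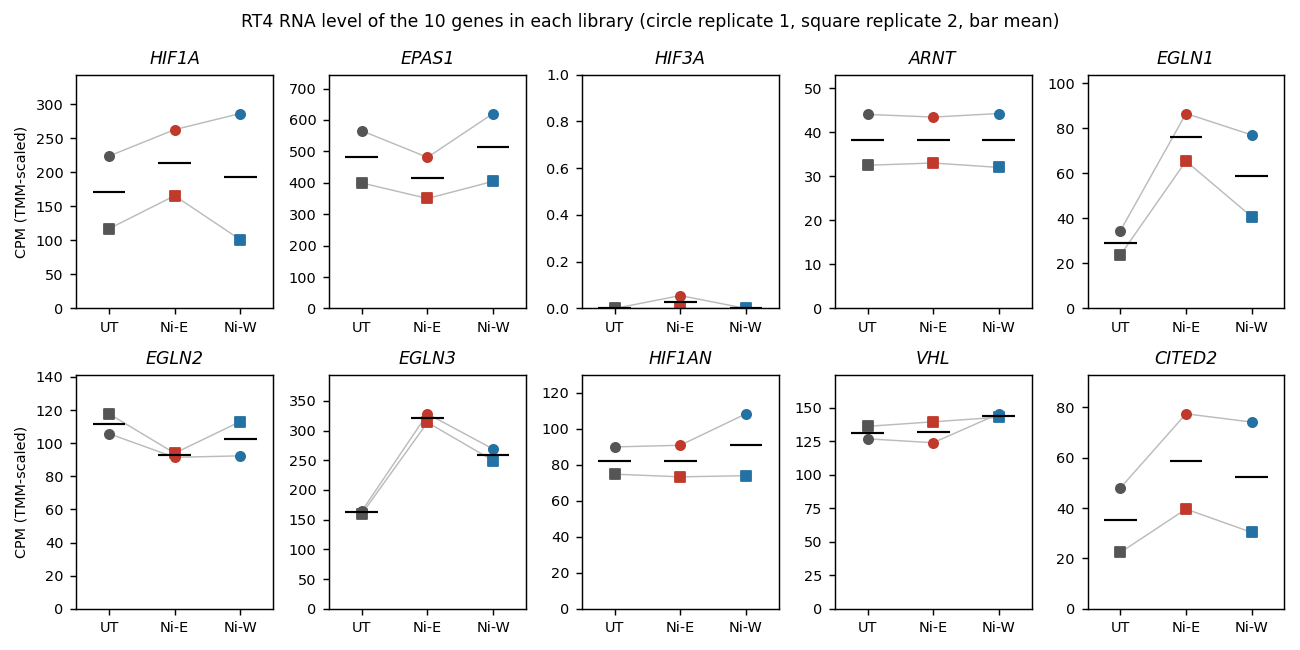
RNA level of each gene in the 6 RT4 libraries, in CPM (counts scaled to the library total with TMM factors; y axis from 0, a different scale in each panel), with circles for replicate 1, squares for replicate 2, grey lines joining libraries of the same number and black bars for the mean. EGLN3 lay at 160.0 to 165 CPM in UT and 314 to 328 CPM in Ni-E libraries, whereas HIF1A and CITED2 differed more between replicates than between conditions.

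Messenger RNA of the HIF subunits did not pass the test in any contrast. HIF1A had 224 and 117 CPM in the UT libraries, 263 and 166 CPM in the Ni-E libraries and 286 and 101 CPM in the Ni-W libraries. Replicate 1 was higher in every condition, by 1.91-fold in UT, 1.59-fold in Ni-E and 2.83-fold in Ni-W cells, and the conditions overlapped. The log2 fold change in Ni-E vs UT was 0.33 ± 0.56 (SE; adjusted P = 0.994, edgeR quasi-likelihood test), and with the replicate block it was 0.38 ± 0.16 (adjusted P = 0.148).

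EPAS1 had 565 and 399 CPM in UT, 481 and 350 CPM in Ni-E and 621 and 405 CPM in Ni-W cells. Within each replicate the Ni-E library was the lowest of the 3, but the conditions overlapped. Its log2 fold change was −0.22 ± 0.30 in Ni-E vs UT (edgeR adjusted P = 0.983) and 0.30 ± 0.30 in Ni-W vs Ni-E (edgeR adjusted P = 1). EPAS1 exceeded HIF1A in TPM in all 6 libraries, by 1.38-fold to 3.03-fold.

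ARNT is a β partner of both α subunits. It had 44.1 and 32.5 CPM in UT, 43.4 and 33.0 CPM in Ni-E and 44.2 and 32.0 CPM in Ni-W cells. The 3 conditions lay almost on top of each other within each replicate, with 95% intervals of the log2 fold change of −0.67 to 0.67 in Ni-E vs UT without the block and −0.25 to 0.26 with it. The summed TPM of HIF1A and EPAS1 was 15.2 to 20.4 times that of ARNT. Its paralog ARNT2, left out of this ratio, had 20.16 and 11.13 TPM in the UT libraries, where ARNT had 18.41 and 11.33 TPM.

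Of the hydroxylases, EGLN3 passed the test in Ni-E vs UT without the block, EGLN1 passed it with the block, and EGLN2 and HIF1AN passed it in neither model. Differences between these genes were not tested. EGLN3 (PHD3), which hydroxylates HIF-α and is itself induced by it, had 165 and 160.0 CPM in the UT libraries, 328 and 314 CPM in the Ni-E libraries and 269 and 249 CPM in the Ni-W libraries. Both Ni-E libraries lay above both Ni-W libraries, which lay above both UT libraries, and replicates within a condition differed by 1.03-fold to 1.08-fold. EGLN3 rose 1.98-fold in Ni-E vs UT (log2 0.98 ± 0.15, edgeR adjusted P = 0.0404), and with the replicate block the rise was of the same size (edgeR adjusted P = 4.37e-05). It was the only member called among the 9 tested by the model without a block, where 2.17% of all 14502 tested genes were called in this contrast (1.45% as higher).

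The EGLN3 call rested on having both replicates of the conditions compared. Without the block it was lost when UT replicate 1 (edgeR adjusted P = 0.286), UT replicate 2 (0.344), Ni-E replicate 1 (0.365) or Ni-E replicate 2 (0.313) was left out, with log2 fold changes of 0.95 to 1.02 throughout. With the block the adjusted P was 2.13e-11 to 0.00142 in edgeR. A fit that leaves out a library with the block has 1 residual degree of freedom per gene and takes the lone library of a condition to vary like the other groups, so it is a weak check of stability. On TPM, limma gave log2 fold changes of 0.99 to 1.00 and did not call EGLN3 (limma adjusted P of 0.159 to 0.174 over 3 settings).

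EGLN1 (PHD2), held to be the main HIF prolyl hydroxylase in normal oxygen, had 34.5 and 23.7 CPM in UT, 86.5 and 65.4 CPM in Ni-E and 77.1 and 40.7 CPM in Ni-W cells. Every nickel-exposed or washed-out library lay above both UT libraries. Its fold in Ni-E vs UT was the largest of the 9 tested members at 2.61 (log2 1.39 ± 0.37), but it did not pass the edgeR test without the block (adjusted P = 0.172). With the block EGLN1 rose 2.64-fold (log2 1.40 ± 0.14, edgeR adjusted P = 7.33e-05), and it was also called by DESeq2 without a block (adjusted P = 0.018, with 4.65% of all genes called by that tool).

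EGLN2 (PHD1), the third prolyl hydroxylase and not known as a hypoxia-induced gene, had 106 and 118 CPM in UT, 91.5 and 93.9 CPM in Ni-E and 92.3 and 113 CPM in Ni-W cells. Both Ni-E libraries lay below both UT libraries, but the difference did not pass the test (log2 −0.27 ± 0.18, edgeR adjusted P = 0.749, and 0.117 with the block). Libraries of Ni-E and UT cells did not overlap for 39.6% of all genes tested, those of Ni-W and UT for 29.2%, and those of Ni-W and Ni-E for 25.4%. The lack of overlap in EGLN1, EGLN2 and EGLN3 was thus not particular to them. Reads of EGLN2 can be shared with RAB4B-EGLN2 readthrough transcripts, which makes its counts uncertain.

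The shares of the 3 EGLN genes in their summed TPM, a description with no test, differed between the conditions. EGLN3 made up 52.1% and 49.6% of the sum in UT, 68.5% and 68.1% in Ni-E and 64.4% and 60.5% in Ni-W cells. EGLN2 made up 43.9% and 47.7% in UT, 25.0% and 26.7% in Ni-E and 28.9% and 35.9% in Ni-W cells. EGLN1 stayed the smallest part, with 2.67% to 6.70% over the 6 libraries, shares that rest on its annotated length of 7097 bases. The summed level was 237 and 202 TPM in UT, 350.4 and 301 TPM in Ni-E and 340 and 256 TPM in Ni-W cells.

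**Figure D2:**
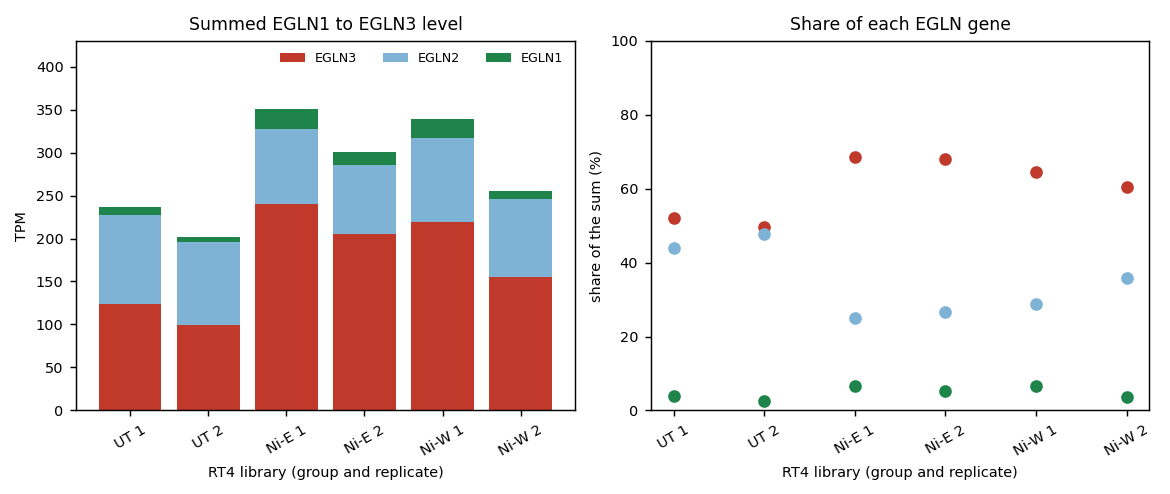
Summed TPM of EGLN1, EGLN2 and EGLN3 as stacked bars (left) and the share of each gene in that sum in percent (right) for each of the 6 RT4 libraries. EGLN3 and EGLN2 held similar shares in the UT libraries (52.1% and 49.6% against 43.9% and 47.7%), and EGLN3 held more than EGLN2 in the Ni-E and Ni-W libraries.

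HIF1AN, the asparaginyl hydroxylase, had 89.9 and 74.8 CPM in UT, 90.8 and 73.3 CPM in Ni-E and 108 and 73.9 CPM in Ni-W cells. Its log2 fold change was −0.00 ± 0.25 in Ni-E vs UT and 0.15 ± 0.25 in Ni-W vs UT (edgeR adjusted P = 0.999 in both), and the conditions overlapped. VHL, the substrate receptor of the HIF-α ubiquitin ligase, had 127 and 136 CPM in UT, 124 and 139 CPM in Ni-E and 145 and 143 CPM in Ni-W cells. Its Ni-W libraries lay above all others by a small margin, with a log2 fold change of 0.13 ± 0.16 against UT (edgeR adjusted P = 0.999). Such a lack of overlap, in either direction, was found for 29.2% of all genes in Ni-W vs UT and 25.4% in Ni-W vs Ni-E. The 95% interval for VHL in Ni-E vs UT was −0.38 to 0.39 on the log2 scale, and −0.22 to 0.22 with the block.

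CITED2, which competes with HIF-α for p300 and CBP, had 48.0 and 22.4 CPM in UT, 77.5 and 39.6 CPM in Ni-E and 74.2 and 30.4 CPM in Ni-W cells. The conditions overlapped, since replicate 1 was 1.96-fold to 2.44-fold above replicate 2, but within each replicate the Ni-E library was highest and the UT library lowest. Without the block the difference in Ni-E vs UT did not pass the test (log2 0.73 ± 0.59, edgeR adjusted P = 0.844). With the block CITED2 rose 1.69-fold (log2 0.76 ± 0.12, edgeR adjusted P = 0.00175). That call was lost without UT replicate 1 (log2 0.75, edgeR adjusted P = 0.0682) or UT replicate 2 (log2 0.77, edgeR adjusted P = 0.055), with nearly the same fold.

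With the block, then, 3 of the 9 tested members were called as higher in Ni-E cells (EGLN1, EGLN3 and CITED2) and 0 as lower, beside 12.6% of all genes called in this contrast (7.64% as higher). The median log2 fold change of the 9 members was 0.00 under both models, close to that of all genes (−0.01 without and −0.00 with the block).

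**Figure D3:**
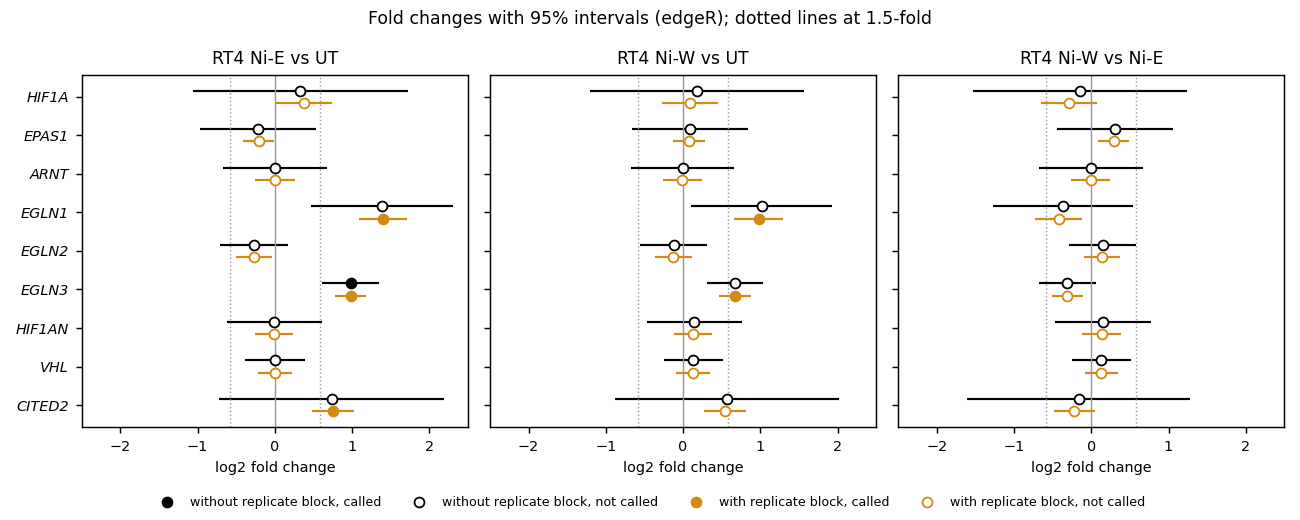
Log2 fold changes of the 9 tested genes in the 3 RT4 contrasts with 95% intervals, from edgeR without (black) and with (orange) the replicate block; filled points were called and dotted lines mark 1.5-fold. EGLN1, EGLN3 and CITED2 were called with the block in Ni-E vs UT and EGLN1 and EGLN3 in Ni-W vs UT, and EGLN3 alone was called without it.

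Persistence after washout was examined in the Ni-W vs UT contrast, which shares its UT libraries with the contrast above. Without the block 0 members were called by edgeR, beside 0.6% of all genes (87 genes), with 1323 genes at an unadjusted P under 0.05, and DESeq2 also called 0 members (2.77% of all genes). EGLN3 had a 1.60-fold higher level (log2 0.67 ± 0.15, edgeR adjusted P = 0.161) and EGLN1 a 2.02-fold higher level (log2 1.02 ± 0.37, edgeR adjusted P = 0.47). With the block 2 of 9 members rose, beside 8.57% of all genes called in either direction and 840 of 14502 as higher. They were EGLN1, by 1.97-fold (edgeR adjusted P = 0.00126), and EGLN3, by 1.60-fold (edgeR adjusted P = 0.000809). CITED2 was 1.45-fold higher (edgeR adjusted P = 0.0174 with the block), which is under the 1.5-fold threshold. The blocked EGLN3 call was lost without UT replicate 1 (log2 0.65, edgeR adjusted P = 0.102) or UT replicate 2 (log2 0.70, edgeR adjusted P = 0.064). For EGLN1 the adjusted P with 1 library left out was at most 0.0227 in edgeR, from the same fits with 1 residual degree of freedom. Without Ni-W replicate 2 the blocked fold of CITED2 was past 1.5-fold (log2 0.66, edgeR adjusted P = 1e-05).

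The Ni-W vs Ni-E contrast asked whether levels fell back once nickel was removed. No member was called by edgeR without or with the block or by DESeq2 without it. Over all genes the numbers called were 0 without the block (0%, with 808 at an unadjusted P under 0.05), 655 with it (4.52%) and 139 by DESeq2 (0.947%). EGLN3 had log2 −0.31 ± 0.15 (edgeR adjusted P = 1, and 0.0806 with the block) and EGLN1 had log2 −0.37 ± 0.37 (edgeR adjusted P = 1, and 0.117 with the block). Within replicate 1 the Ni-W level of EGLN1 was 0.89 of the Ni-E level, and within replicate 2 it was 0.622 of it. With the block, HIF1A was called as lower without Ni-W replicate 1 (log2 −0.63, edgeR adjusted P = 4.16e-07), and EGLN1 without Ni-E replicate 1 (log2 −0.59, edgeR adjusted P = 0.00538) or Ni-W replicate 1 (log2 −0.64, edgeR adjusted P = 6.31e-05). HIF1A was also called as higher in Ni-E vs UT without Ni-E replicate 1 (log2 0.64, edgeR adjusted P = 8.52e-05 with the block).

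Other genes of the pathway were read from a list of 30 HIF regulators, such as the VHL partners ELOB, ELOC, CUL2 and RBX1 and the coactivators EP300 and CREBBP. Of these, 29 were tested and 0 were called by edgeR without the block in any contrast. Over all genes the shares called were 2.17% in Ni-E vs UT, 0.6% in Ni-W vs UT and 0% in Ni-W vs Ni-E. With the block these shares were 12.6%, 8.57% and 4.52%, and 1 of the 29 was called, ARNT2, a paralog of ARNT. It fell in Ni-E vs UT (log2 −0.72 ± 0.12, edgeR adjusted P = 0.00243) and rose in Ni-W vs Ni-E (log2 0.78 ± 0.12, edgeR adjusted P = 0.00446). The median log2 fold change of the list in Ni-E vs UT was 0.07.

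Known HIF targets outside the 10 genes were read from a list of 27, all of which were tested. In Ni-E vs UT 14 rose and 0 fell without the block, beside 1.45% of all genes as higher. With it 24 rose, beside 7.64%, and 1, CA12, fell. The median log2 fold change was 1.29 against −0.01 over all genes tested. ADM, which encodes the vasodilator adrenomedullin, rose from 61.9 and 64.6 TPM in UT to 299 and 333 TPM in Ni-E cells (log2 2.30 ± 0.29, edgeR adjusted P = 0.0266). BNIP3, a mitophagy receptor, rose from 26.4 and 21.1 TPM to 94.98 and 88.5 TPM (log2 1.95 ± 0.17, edgeR adjusted P = 0.0113). LDHA, the lactate dehydrogenase subunit of glycolysis, rose from 658 and 570.0 TPM to 1458 and 1435 TPM (log2 1.23 ± 0.16, edgeR adjusted P = 0.028).

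Among the other targets that rose, ANGPTL4, BHLHE40, MXI1 and PFKFB4 had log2 fold changes of 1.97 to 2.42, and BNIP3L, DDIT4, ERO1A, INSIG2, KDM3A and P4HA2 had 1.13 to 1.45. SLC2A3, a glucose transporter, had 0 and 2 counts in UT against 128 and 197 in Ni-E and 123 and 125 in Ni-W cells. The log2 fold change of EGLN3 (0.98) was below those of all 14 called targets, and that of EGLN1 (1.39) was near the median of the list.

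In Ni-W vs UT 2 targets rose without the block, BHLHE40 (log2 1.39 ± 0.16, edgeR adjusted P = 0.0354) and SLC2A3. Beside them, 0.6% of all genes were called in either direction and 73 of 14502 as higher. With the block 18 rose, beside 8.57% in either direction and 840 as higher. The median log2 fold change of the list was 0.74 in this contrast and −0.54 in Ni-W vs Ni-E. In the latter 0 were called without the block and 10 fell with it, beside 4.52% of all genes called in either direction and 261 as lower. EGLN3, EGLN1 and CITED2 likewise had positive values against UT and negative values against Ni-E cells. HIF1A had the same signs without the block (log2 0.33 in Ni-E vs UT, 0.18 in Ni-W vs UT and −0.15 in Ni-W vs Ni-E). The contrasts share libraries, so their signs are not independent. The difference between the course of these members and that of the targets was not tested.

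**Figure D4:**
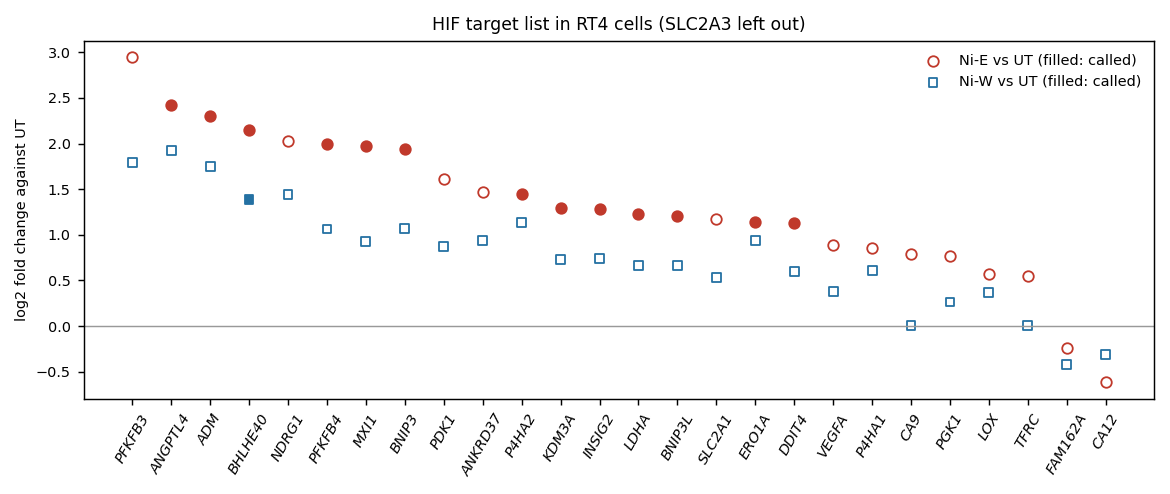
Log2 fold changes against UT of 26 of the 27 HIF targets in RT4 cells for Ni-E (circles) and Ni-W (squares), filled where called by edgeR without the block; SLC2A3, with 0 and 2 counts in UT, was left out. The Ni-E value was above 0 for 25 of the 27 listed targets, and ADM, ANGPTL4 and BHLHE40 had the largest values of the called genes shown.

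Genes whose profile over the 6 RT4 libraries was closest to that of EGLN3, the member called without the block, were sought among 11141 genes with a mean of at least 5 CPM, by Euclidean distance of mean-centred log2 CPM. They were DUSP7 (distance 0.157), CDKN1A (0.175) and PIK3IP1 (0.190). Their log2 fold changes were 1.00, 0.86 and 0.86 in Ni-E vs UT and 0.81, 0.69 and 0.64 in Ni-W vs UT. The 6 libraries share conditions and replicate numbers, and the distances are a description.

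H3K4me3, a histone mark of active promoters, was then read at the same 10 genes in BEAS-2B cells, as RPKM over 2 kb on each side of the start site. The depth recovered from the RPKM values was 28385733 reads in UT, 37493959 in Ni-E and 29933550 in Ni-W cells, and the levels carry 95% Wilson intervals that cover counting error only. With 1 file per condition no test of the conditions was possible. Promoter signal was lower in the Ni-W library as a whole. Of its reads, 22.9% lay in the listed promoters, against 37.6% in UT and 36.0% in Ni-E cells. The median promoter had 1.12 RPKM, against 1.57 and 1.39. Whether less of the mark or a less efficient immunoprecipitation gave this was not tested. Because of the lower signal, folds are given after division by the library median, and unscaled folds beside them where they differ in direction.

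CITED2 had the highest promoter level of the 10 genes in all 3 libraries, with 14.0 (13.3 to 14.7) RPKM in UT, 13.5 (13.0 to 14.2) in Ni-E and 7.70 (7.22 to 8.21) in Ni-W cells, above 97.3% or more of all promoters. EPAS1 followed in UT cells with 11.3 (10.7 to 11.9) RPKM, and had 8.57 (8.12 to 9.06) in Ni-E and 5.48 (5.08 to 5.91) in Ni-W cells. EGLN2, HIF1A, VHL and ARNT had 5.30 to 7.76 RPKM in UT cells. HIF1AN had 3.51 RPKM and EGLN3 2.12 RPKM, while EGLN1 and HIF3A had 0.37 and 0.299 RPKM.

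EGLN1 thus carried little of the mark in its counted window, although its RNA was present in every RT4 library and its RefSeq window is rich in CpG (36 CpG, more than in 95.1% of windows). The start site that the authors used for each gene was not given in the sources used here, and a window at another start would give another value. HIF3A, at 0 counts or 1 count in RT4 cells, had 34 reads in the UT library, 47 in the Ni-E library and 25 in the Ni-W library. These were above the floor of 3 reads, but the UT level lay above only 32.8% of promoters. Input libraries were not used, so the mark could not be told apart from background reads at this level.

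In Ni-E vs UT 0 of the 8 members with at least 1 RPKM in either library were past 1.5-fold, beside 1.41% of 13935 such promoters. EPAS1 had the lowest median-scaled fold, 0.857 (counting interval 0.793 to 0.926), and 4.59% of promoters had a lower one. The folds of EGLN3 and CITED2, whose RNA was higher in Ni-E cells of the other line under the block, were 0.905 (0.759 to 1.08) and 1.10 (1.03 to 1.17), and the unscaled fold of CITED2 was 0.971, so that its direction rests on the scaling.

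In Ni-W vs UT 2 of the 8 members, EGLN3 and VHL, were past 1.5-fold as lower and 0 as higher, beside 18.4% of 14059 promoters past it as lower and 4.36% as higher. EGLN3 went from 2.12 (1.87 to 2.41) RPKM in UT to 0.81 (0.664 to 0.988) RPKM in Ni-W cells, a median-scaled fold of 0.535 (0.422 to 0.677). VHL went from 6.04 (5.61 to 6.51) to 2.35 (2.10 to 2.65) RPKM, a fold of 0.546 (0.475 to 0.627), and 2.25% and 2.75% of promoters had a lower fold than these 2 genes. A count of 2 in 8 is near the share of all promoters. The count depended on the scaling: without it 6 of the 8 were past 1.5-fold as lower, beside 71.2% of promoters. With quantile normalization 1, EGLN3, was past it as lower (VHL had 0.67), beside 5.28%, and 1, ARNT (1.72), as higher, beside 8.06%. Promoters with 1 to 3 RPKM in UT cells, as for EGLN3, had a median fold of 0.898, and those with 6 to 10 RPKM, as for VHL, had 0.783.

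Not all members fell with the library. ARNT had 5.30 (4.90 to 5.74) RPKM in UT and 5.38 (4.98 to 5.81) in Ni-W cells, a median-scaled fold of 1.42 (1.27 to 1.59) and an unscaled fold of 1.01, and 5.21% of promoters had a higher scaled fold. EGLN1 went from 42 reads (0.37 RPKM, 0.274 to 0.5) in UT to 107 reads (0.894 RPKM, 0.74 to 1.08) in Ni-W cells, an unscaled fold of 2.42 and a scaled one of 3.39 (2.37 to 4.84), but it stayed under 1 RPKM in all 3 libraries. Promoters under 1 RPKM in UT cells had a median scaled fold of 1.3, with an upper quartile of 1.9. HIF1A had an unscaled fold of 0.706 and a scaled one of 0.989 (0.891 to 1.10), so that its direction rests on the scaling; with quantile normalization the fold was 1.19.

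EPAS1 (0.679), EGLN2 (0.695), HIF1AN (0.696) and CITED2 (0.773) had scaled folds under 1 in Ni-W vs UT. All 4 also had folds under 1 without scaling (0.484 to 0.552) and with quantile normalization (0.803 to 0.901). So did the median of all promoters with at least 1 RPKM in either library, at 0.801 scaled, 0.572 without scaling and 0.955 with quantile normalization. In Ni-W vs Ni-E 4 of the 8 members, EGLN2, EGLN3, HIF1AN and VHL, were past 1.5-fold as lower, beside 30.5% of 13965 promoters, and 0 as higher, beside 4.04%. Without scaling 6 were past it as lower, beside 64.2%. With quantile normalization 2, EGLN3 and VHL, were past it as lower, beside 5.81%, and 1, ARNT (1.57), as higher, beside 8.03%. The lowest median-scaled fold was that of VHL, 0.494 (0.432 to 0.565).

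**Figure D5:**
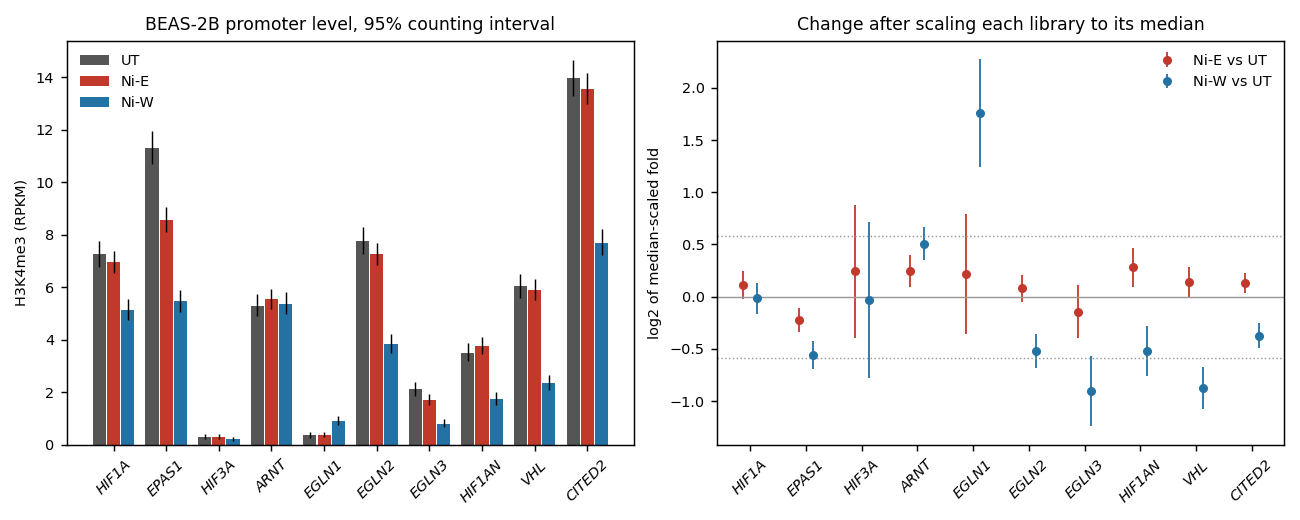
H3K4me3 RPKM at the 10 promoters in the UT, Ni-E and Ni-W libraries of BEAS-2B cells with 95% counting intervals (left, bars from 0) and log2 of the median-scaled fold against UT with 95% counting intervals (right, dotted lines at 1.5-fold). In the Ni-W library the bars of HIF1A, EPAS1, EGLN2, EGLN3, HIF1AN, VHL and CITED2 were lower than in UT, that of ARNT was nearly level (5.30 and 5.38 RPKM), and that of EGLN1 was higher (0.37 and 0.894 RPKM).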

How the data were processed

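RNA-Seq libraries of RT4 cells (3 conditions, 2 replicates each) and H3K4me3 ChIP-Seq libraries of BEAS-2B cells (1 per condition) were analysed, with groups from the sample titles. Input libraries were not used here. The replicates are described as biological, with no further detail on the cultures.

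For RNA-Seq, the authors deposited RSEM expected counts, TPM and FPKM per gene. The study's methods name STAR and hg19, the processing notes STAR, DESeq2 and hg38, and which of these builds the RSEM tables use is not given in the sources used here. The library kit is not stated to keep the strand, so antisense reads cannot be told apart. After rounding, the deposited expected counts entered edgeR's quasi-likelihood F test, with TMM factors, the filterByExpr filter and the 3 groups in a single model that had no block. A gene was called when its fold reached 1.5 in either direction and its P, adjusted by Benjamini-Hochberg over every tested gene, was under 0.05. The deposited TPM served for levels between genes and for limma as an alternative, and the deposited FPKM entered no result. CPM are TMM-scaled, and log2 CPM for profiles used a prior count of 2.

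H3K4me3 reads were aligned by the authors with BWA (hg38) and reduced to non-redundant reads, and promoter RPKM were deposited without peak calling. Deposited RPKM values were whole multiples of 1 step for 100% of values in each library (rounded to 3 decimals), which gives the reads behind each value. The chromatin dynamic score, the difference of square roots of median-scaled RPKM, was computed for each contrast and used for the alternatives below.

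Pairing by replicate number comes from the titles, where 1 library of each condition is marked as a duplicate, and was checked by the correlation of deviations given above. The 10 genes and the lists were chosen with earlier results of these data known. All 10 genes are named, as are the pathway list members called without the block and, for the called member, its 3 nearest profiles. ARNT2, CA12 and the cell type markers were named after their values were seen. Gene lists were described by counts and medians, with no set test. An item of the marker lists is not reported by name here. Each library was left out in turn, and further alternatives were the replicate block, DESeq2, RLE size factors, a minimum of 10 counts per library, no filter, the compared groups alone, and limma on log2(TPM + 1) or log2(TPM + 0.1). DESeq2 with the block, left-out libraries with the block and the count of promoters past 1.5-fold under other scalings were added after the data were seen. The promoter scores were also computed as log2 ratios after adding 1 RPKM, with quantile normalization, without median scaling, and with medians taken over promoters that had at least 1 RPKM. Scripts were tested on simulated data.

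Statistics were run in R 4.3.3 (packages DESeq2 1.42.0, edgeR 4.0.16, limma 3.58.1), and tables and figures in Python 3.11.15 with matplotlib 3.10.9, pandas 2.3.3 and numpy 2.4.6.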

Additional observations from a re-analysis of the deposited data

How the results depend on the processing

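Pairing by replicate number changed the calls most. Calls over all genes in Ni-E vs UT, Ni-W vs UT and Ni-W vs Ni-E numbered 1833, 1243 and 655 with the replicate block, and 1429, 965 and 527 with DESeq2 and the block. DESeq2 without it called 734, 437 and 139. With at least 10 counts in every library 209 and 54 were called in the contrasts against UT. Without a filter 193 and 14 were called in the contrasts of Ni-W cells. With only the compared groups Ni-W vs UT had 0. In Ni-E vs UT limma called 170 genes on log2(TPM + 1), 173 on log2(TPM + 0.1) and 120 without a filter, and 11 on log2(TPM + 0.1) in Ni-W vs Ni-E. Members called in Ni-E vs UT numbered 1 in the model without a block, 3 with the block in edgeR and in DESeq2, 2 in DESeq2 without it and 0 in the 3 limma fits. In Ni-W vs UT they numbered 2 with the block in both tools and 0 otherwise. Leaving out 1 library at a time, with or without the block, gave 0 to 2254, 0 to 1904 and 0 to 1075 calls over all genes and 0 to 4, 0 to 3 and 0 to 2 members. Where this changed a direction, the log2 fold changes were in Ni-E vs UT −0.065 to 0.87 for HIF1A, −0.47 to 0.059 for EPAS1, −0.22 to 0.23 for ARNT, −0.17 to 0.14 for HIF1AN and −0.085 to 0.083 for VHL. They were in Ni-W vs UT −0.75 to 0.75 for HIF1A, −0.25 to 0.36 for EPAS1, −0.25 to 0.23 for ARNT, −0.28 to 0.024 for EGLN2, −0.15 to 0.40 for HIF1AN and −0.21 to 1.22 for CITED2. They were in Ni-W vs Ni-E −1.07 to 0.42 for HIF1A, −0.024 to 0.58 for EPAS1, −0.24 to 0.21 for ARNT, −0.89 to 0.021 for EGLN1, −0.0056 to 0.30 for EGLN2, −0.14 to 0.40 for HIF1AN and −0.93 to 0.40 for CITED2. EGLN3 kept its direction in all 22 alternatives of each contrast, and EGLN1 and CITED2 kept theirs in all 22 of Ni-E vs UT. Values near 0 changed sign. In Ni-E vs UT, VHL had −0.0024 with DESeq2, −0.0031 with DESeq2 and the block, and −0.00099 with RLE factors. ARNT had 0.0013 with the block, 0.00012 with at least 10 counts, 0.0094 with limma on log2(TPM + 1) with and without a filter, and 0.011 on log2(TPM + 0.1). HIF1AN had 0.0015 and 0.0020 with these limma fits. ARNT had 0.044 and 0.046 in Ni-W vs UT and 0.035 in Ni-W vs Ni-E with limma. Among chromatin dynamic scores past their counting error, the sign changed without median scaling for VHL (−0.0274) and CITED2 (−0.0553) in Ni-E vs UT and for ARNT (−0.0374) in Ni-W vs Ni-E. On the log2 ratio it changed for VHL (−0.0107) and CITED2 (−0.0231) in Ni-E vs UT. HIF1A and EGLN2, with scores within counting error in Ni-E vs UT, had scaled folds of 1.08 and 1.06 but unscaled folds of 0.957 and 0.936. For EPAS1 in Ni-W vs Ni-E the score was 0.0309 with quantile normalization and 0.0395 with medians over promoters with at least 1 RPKM. Members past 1.5-fold as lower in Ni-W vs UT numbered 6 without median scaling and 1 with quantile normalization, which gave 2 in Ni-W vs Ni-E and 1 as higher in each of these contrasts. The causes were not tested. HIF3A had too few counts in RT4 cells to be tested, and 1 H3K4me3 file per condition leaves the promoter differences without a replicate check.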

Other observations

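An antisense RNA at the 3′ end of HIF1A, HIF1A-AS2 (RefSeq GRCh38.p14, chromosome 14, 61747039 to 61749089, within and just past the end of HIF1A), had 14.4 and 13.7 TPM in UT, 15.3 and 19.8 TPM in Ni-E and 14.6 and 15.9 TPM in Ni-W RT4 cells, and it was not called in any contrast by edgeR without or with the replicate block. Its reads cannot be told apart from those of HIF1A without strand. In BEAS-2B cells its promoter had 6.69 (95% Wilson interval 6.23 to 7.19) RPKM of H3K4me3 in UT, 5.77 (5.40 to 6.16) in Ni-E and 14.7 (14.0 to 15.4) in Ni-W cells. The median-scaled fold in Ni-W vs UT was 3.07 (2.82 to 3.34) and the unscaled fold 2.19, and 0.775% of promoters with at least 1 RPKM had a higher scaled fold. Another antisense RNA, HIF1A-AS3 (61715558 to 61751097), spans HIF1A-AS2, and reads counted for HIF1A-AS2 were not separated from those near HIF1A-AS3. The HIF1A promoter itself had a scaled fold of 0.989 in Ni-W vs UT. HIF1A-AS1, whose RefSeq start lies 310 bases from a start of HIF1A so that the windows share reads, had a scaled fold of 1.22 (1.11 to 1.34) and an unscaled fold of 0.87, so that its direction rests on the scaling. There was 1 file per condition, so none of these differences has a replicate check.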
